A study of Mus musculus with 15 samples.

Results

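The genes described here encode the GABA-B receptor, its Kctd partners and the G protein-gated potassium channels (GIRK channels) to which the receptor couples in neurons. They were 8 genes chosen by symbol: Gabbr1, Gabbr2, Kctd8, Kctd12, Kctd16, Kcnj3, Kcnj6 and Kcnj9. A gene entered when its Ensembl identifier carried one of these symbols in GENCODE M21, and 7 of the 8 matched one of the 38561 genes of the count data. Kctd12 (ENSMUSG00000098557) was not matched and was not analysed here. The low-count filter of the tests left 14293 genes, among them 6 of these genes, and Kctd16 did not pass it.

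The RNA came from a cell population highly enriched for Purkinje cells (PCs), the output neurons of the cerebellar cortex. The cells were cut out of tissue sections by laser capture microdissection, and the study could not exclude some contaminating glia. The samples comprised 15 libraries, 3 biological replicates at each of 5 ages (P0, P4 and P8, then P14 and P21, in days after birth), from untreated mice of the strain that the labels spell C56/BL6 and the methods give as male C57/BL6. At P4, P8, P14 and P21 single PC somata were collected, whereas at P0 clusters of PCs were taken, so age and mode of capture cannot be told apart at P0. Dendrites and axons were not collected as such. Total counts on genes ranged from 3409371 to 7814951 per library.

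GABA-B receptors respond to the inhibitory transmitter GABA by way of G proteins of the Gi/o class. A working receptor is a pair of subunits: the product of Gabbr1 binds GABA, and that of Gabbr2 carries it to the cell surface and engages the G protein. Kctd8, Kctd12 and Kctd16 encode auxiliary subunits that attach to the Gabbr2 subunit and shape the speed and desensitization of the response. Freed G protein beta-gamma dimers open GIRK channels, assembled from subunits encoded by Kcnj3 (GIRK1), Kcnj6 (GIRK2) and Kcnj9 (GIRK3), and potassium leaving through them quiets the cell. In the adult cerebellum, GABA-B receptors are abundant in PCs, where they are also known to modulate glutamate signalling.

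On GRCm38, Gabbr1 (ENSMUSG00000024462) lies on chromosome 17 at 37045966 to 37075067 on the plus strand, and Gabbr2 (ENSMUSG00000039809) on chromosome 4 at 46662305 to 46991873 on the minus strand. Kctd8 (ENSMUSG00000037653) lies on chromosome 5 at 69109285 to 69341679 on the minus strand. Kctd16 is ENSMUSG00000051401. Among the channel genes, Kcnj3 (ENSMUSG00000026824) lies on chromosome 2 at 55435970 to 55598145 on the plus strand. Kcnj6 (ENSMUSG00000043301) lies on chromosome 16 at 94748636 to 94997701, and Kcnj9 (ENSMUSG00000038026) on chromosome 1 at 172320501 to 172329318, both on the minus strand. Genes on the opposite strand share 1621 exon bases with Kcnj3 (Gm26794), 380 with Kcnj6 (Gm41505), 172 with Kcnj9 (Gm36937), 106 with Kctd8 (Gm24368) and 360 with Kctd16. The library kit does not keep the strand, so reads from such a shared stretch cannot be told apart. Gm26794 itself had at most 24 counts in a library and Gm24368 none, and the others were not analysed here. Ambiguous reads were kept out of the counts, so reads from the 1621 shared bases may be missing from Kcnj3. The RPKM of Kcnj3 was scaled to all 5215 exon bases. Its level, and its share among the channel genes, may therefore be understated.

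The bases just before the annotated start are shown for the genes whose courses differed most, the rising receptor pair Gabbr1 and Gabbr2, the falling Kcnj6 and the rising Kcnj9. They were taken from RefSeq on GRCm38.p6, are written 5′ to 3′ on the strand of the gene, and end before the outermost annotated start, so that no transcribed base is included. Short motifs were searched on both strands, and their matches are in capitals. The first is the GC box with the letters GGGCGG. Another is the box written CCAAT, found in many promoters. The TATA box was searched as TATAAA. The last, the core of the cyclic AMP response element, was searched as TGACG. The positions are chr17:37045716-37045965 (plus strand), chr4:46991874-46991964 (minus strand), chr16:94997702-94997946 (minus strand) and chr1:172329323-172329572 (minus strand).
Gabbr1: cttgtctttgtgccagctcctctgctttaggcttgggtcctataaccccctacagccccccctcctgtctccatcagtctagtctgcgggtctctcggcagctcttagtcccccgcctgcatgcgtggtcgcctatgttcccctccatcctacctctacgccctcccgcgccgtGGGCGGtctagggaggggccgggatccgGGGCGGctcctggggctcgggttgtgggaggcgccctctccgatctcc
Gabbr2: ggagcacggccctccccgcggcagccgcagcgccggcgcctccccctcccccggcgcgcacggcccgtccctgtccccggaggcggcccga
Kcnj6: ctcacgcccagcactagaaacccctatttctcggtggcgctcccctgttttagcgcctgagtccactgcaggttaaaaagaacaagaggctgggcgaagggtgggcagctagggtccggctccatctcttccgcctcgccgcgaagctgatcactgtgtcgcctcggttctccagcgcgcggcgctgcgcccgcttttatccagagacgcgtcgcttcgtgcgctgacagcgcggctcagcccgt
Kcnj9: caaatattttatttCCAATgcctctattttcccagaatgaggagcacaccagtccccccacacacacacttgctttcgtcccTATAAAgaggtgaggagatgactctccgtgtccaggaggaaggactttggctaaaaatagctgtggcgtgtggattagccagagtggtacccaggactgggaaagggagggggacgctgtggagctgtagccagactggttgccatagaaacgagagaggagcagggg
The Gabbr1 stretch held 2 GC boxes. For Gabbr2, whose RefSeq window of 250 bases has 2 GC boxes, both lay outside the 91 bases shown. Kcnj6 had none of the 4 motifs in the stretch shown, and that of Kcnj9 held a CCAAT box and a TATAAA match. Over all 32851 RefSeq windows of the same length, 32.7% held GGGCGG, 33.8% CCAAT, 12.4% TATAAA and 17.8% TGACG. The full windows had a GC content of 66.0% for Gabbr1, 80.8% for Gabbr2, 64.0% for Kcnj6 and 52.0% for Kcnj9, against a median of 52.4% over all windows.

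Levels are given as RPKM, counts scaled to exon length and to the total counts on genes of the library, which allows genes to be compared with each other. The receptor genes were the most abundant of the group at each of the 5 time points, and both rose steeply between P4 and P14. Gabbr1 stood at 20.3, 21.1 and 11.5 RPKM in the 3 libraries of P0, at 33.3, 27.4 and 34.2 at P4, and at 60.0, 56.7 and 64.5 at P8. It reached 151, 134 and 148 RPKM at P14 and 177, 184 and 151 at P21. The libraries of neighbouring time points did not overlap up to P14, while those of P14 and P21 did, and P0 replicate 3 was the lowest of all. The mean went from 17.6 ± 5.34 (SD, n = 3) to 171 ± 17.2 RPKM (SD, n = 3), a 9.70-fold difference between P0 and P21.

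Gabbr2 measured 22.6, 28.9 and 27.8 RPKM at P0 and 25.2, 28.0 and 24.9 at P4. It then stood at 57.7, 41.9 and 55.7 RPKM at P8, at 125, 116 and 140.1 at P14, and at 202, 182 and 147 at P21. P0 and P4 overlapped for Gabbr2, and from P4 on each time point lay wholly above the one before. Its mean rose from 26.4 ± 3.37 (SD, n = 3) to 177 ± 28.1 RPKM (SD, n = 3), a 6.69-fold difference.

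**Figure D1:**
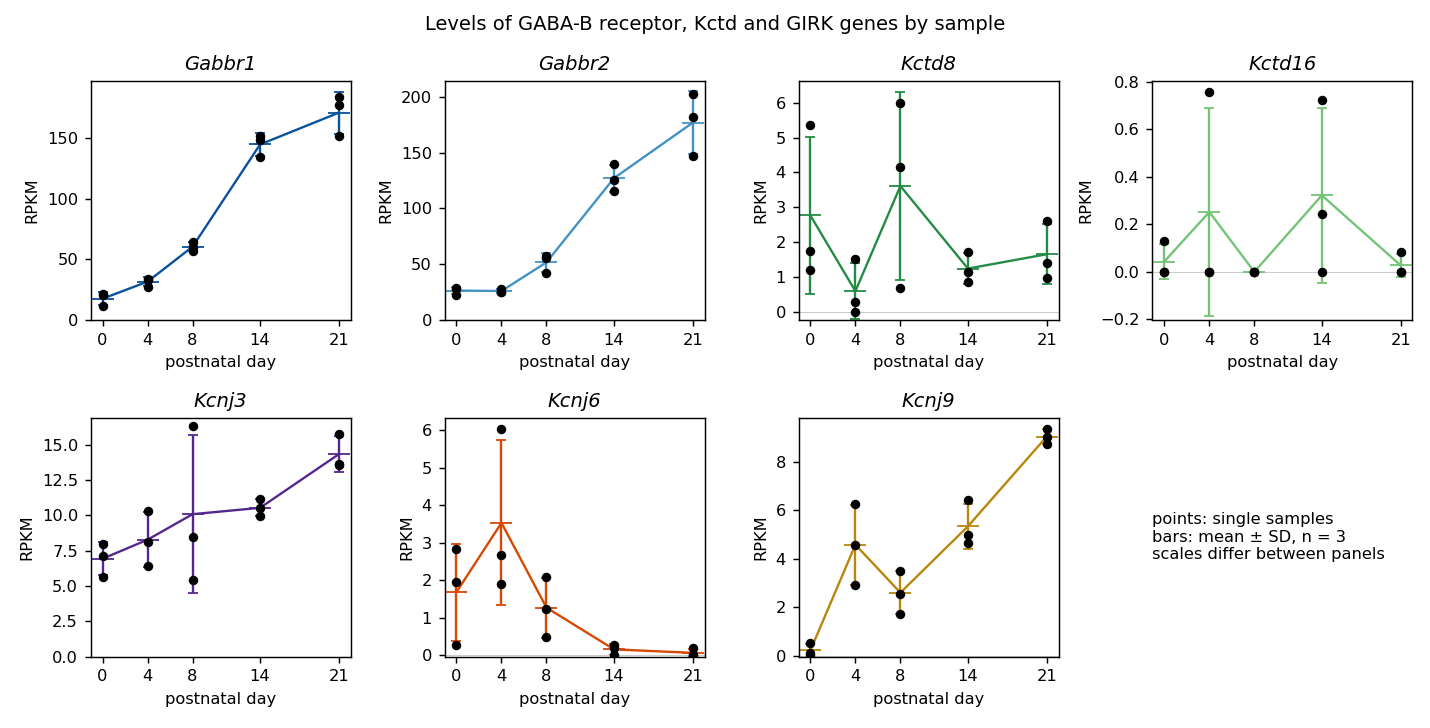
RPKM (vertical axis, a different scale in each panel) of 7 genes against postnatal day. Points are single libraries and lines with bars the mean ± SD of 3 libraries. Gabbr1 and Gabbr2 climb above 100 RPKM by P14, Kcnj9 is near 0 only at P0, and Kcnj6 is near 0 at P14 and P21.

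The change with age was fitted across all 14293 genes in edgeR (quasi-likelihood test), with postnatal day as a number and p-values adjusted by the Benjamini-Hochberg method. The slope is the change in log2 level per day. Gabbr1 rose by 0.18 per day (SE 0.015, adjusted p = 5.68e-08) and Gabbr2 by 0.17 per day (SE 0.012, adjusted p = 2.63e-08). Of the 6 genes tested, 4 rose (Gabbr1, Gabbr2, Kcnj3 and Kcnj9), against 12.1% of all genes tested, and 1 fell (Kcnj6), against 14.1% of all genes. Scaling by total counts alone, without TMM, changed the calls over all genes from 1729 rising and 2021 falling to 1230 rising and 2874 falling, and these 6 genes still gave 4 rising and 1 falling, as they did when the P0 libraries were left out. That scaling moved the median log2 change of all genes from P0 to P21 from -0.11 to -0.46. The samples are bulk RNA, in which fewer cells of a type and less RNA per cell cannot be told apart.

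The time points were also compared step by step. From P0 to P4, Gabbr1 rose by 0.93 on the log2 scale (SE 0.20, edgeR adjusted p = 0.0220), while Gabbr2 differed by 0.08 (SE 0.18, adjusted p = 0.932). At this step 1.74% of all genes tested were called higher and 0.231% lower. The call for Gabbr1 was lost without P0 replicate 3 (adjusted p = 0.0527), P4 replicate 1 (0.0853) or P4 replicate 3 (0.0621). Whether the 2 receptor genes differed from each other at this step was not tested.

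From P4 to P8 both receptor genes rose, Gabbr1 by 0.95 (SE 0.20, edgeR adjusted p = 0.0263) and Gabbr2 by 0.998 (SE 0.18, adjusted p = 0.00938), where 0.882% of all genes were called higher and 0.252% lower. From P8 to P14 the rise was larger in both, 1.41 for Gabbr1 (SE 0.20, edgeR adjusted p = 0.00114) and 1.45 for Gabbr2 (SE 0.18, adjusted p = 6.40e-04), with 1.29% of all genes called higher and 1.38% lower. Leaving out any of the 6 libraries of P4 and P8 ended the Gabbr1 call from P4 to P8, at adjusted p between 0.0684 and 0.126. The Gabbr2 call of that step was lost without P4 replicate 1, P4 replicate 3, P8 replicate 1 or P8 replicate 3, at adjusted p between 0.0513 and 0.0588. The rise from P8 to P14 was called in both genes whichever library was left out.

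From P14 to P21 none of the 6 genes was called by edgeR, DESeq2 or limma-voom, and 0.063% of all genes were called higher and 0.266% lower by edgeR. Gabbr2, with a log2 change of 0.58 (SE 0.18, edgeR adjusted p = 0.352), was the single gene among these 6 whose unadjusted p passed 0.05. Gabbr1 differed by 0.34 (SE 0.19, edgeR adjusted p = 0.810). Over the whole interval from P0 to P21, Gabbr1 rose by 3.64 (SE 0.22, adjusted p = 9.08e-09) and Gabbr2 by 3.10 (SE 0.19, adjusted p = 1.26e-08) in edgeR's test.

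**Figure D2:**
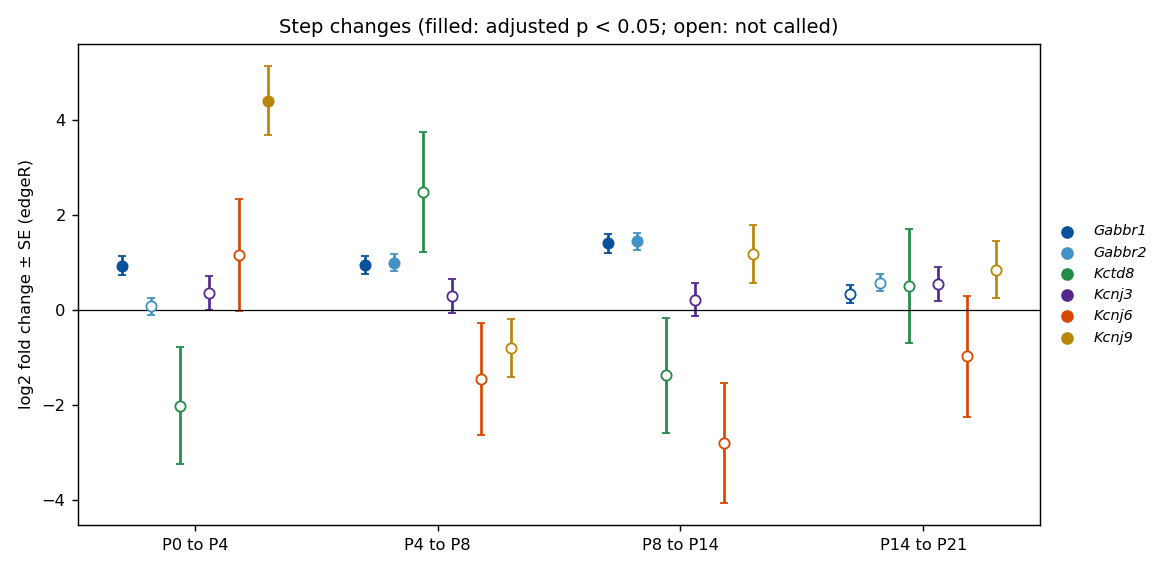
Log2 fold change of the 6 tested genes between neighbouring time points (vertical axis), with bars for the standard error of edgeR. Filled points have an adjusted p below 0.05: Kcnj9 and Gabbr1 from P0 to P4, and both receptor genes from P4 to P8 and from P8 to P14.

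The balance of the receptor subunits was read from the log2 ratio of Gabbr2 to Gabbr1 within each library, with 0.1 RPKM added to both. The mean ratio was 0.63 ± 0.58 in the libraries of P0 and -0.28 ± 0.27 in those of P4 (SD, n = 3 each). Thereafter it was -0.24 ± 0.19 at P8 and -0.19 ± 0.099 at P14, ending at 0.04 ± 0.13 at P21. All 3 libraries of P0 had more Gabbr2 than Gabbr1 per length, most so P0 replicate 3 at 1.27, and at P8 and P14 all 6 libraries had less. The late libraries (P14 and P21) differed from the early libraries (P0 and P4) by -0.25, with p = 0.435 in an exact two-sided permutation test of 6 against 6 libraries. The same p resulted after adjustment over the 3 ratios compared. Without P0 the difference turned to 0.20. Across the 15 libraries the log2 levels of the 2 genes had a Pearson correlation of 0.956, and of 0.084 once the means of the time points were removed, a description of libraries that share their ages.

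Kctd8, an auxiliary subunit gene of the receptor, was low and scattered. It measured 1.202, 5.35 and 1.75 RPKM at P0, 0, 1.52 and 0.275 at P4, and 5.98, 0.696 and 4.16 at P8. At P14 it stood at 1.15, 1.73 and 0.852 RPKM, and at P21 at 2.61, 0.961 and 1.40. Every pair of neighbouring time points overlapped, and the highest libraries were P8 replicate 1 and P0 replicate 2. Neither its slope of -0.0091 per day (SE 0.054, edgeR adjusted p = 0.927) nor the time point as a factor (adjusted p = 0.590) passed the test.

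Kctd16, another auxiliary subunit gene, had 2 counts in P0 replicate 3, 10 in P4 replicate 1, 5 in P14 replicate 1, 14 in P14 replicate 3 and 2 in P21 replicate 3, and none in the other 10 libraries. Summed over the libraries of a time point, its level was 0.322 RPKM at P14, with an exact Poisson interval of 0.194 to 0.503, and 0 at P8, where 3 counts over the group would be 0.0569 RPKM. These intervals (95%) cover counting error only. The libraries of a time point differed widely, with 5, 0 and 14 counts at P14. In edgeR's fit without the low-count filter, neither the slope (adjusted p = 0.929) nor the time point as a factor (0.464) passed for Kctd16, and the lowest adjusted p of a step was 0.480, from P8 to P14.

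The 3 channel subunit genes followed separate courses: Kcnj3 rose mildly, Kcnj9 was near 0 at P0 and between 1.75 and 9.35 RPKM in later libraries, and Kcnj6 fell to near 0. Kcnj3 encodes GIRK1, a subunit that needs a partner to reach the cell surface. It measured 7.16, 7.99 and 5.66 RPKM at P0, 10.3, 8.15 and 6.41 at P4, and 16.3, 5.44 and 8.50 at P8. At P14 it stood at 11.2, 10.5 and 9.95 RPKM and at P21 at 13.7, 15.8 and 13.5. All 3 libraries of P21 lay above all of P14 and P0, and P8 replicate 1 was the highest of all 15.

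Kcnj3 rose by 0.063 per day (SE 0.014, edgeR adjusted p = 0.00233), and from P0 to P21 by 1.40 on the log2 scale (SE 0.36, adjusted p = 0.0102). It was not called in any step between neighbouring time points, nor with the time point as a factor (edgeR adjusted p = 0.0619). That last value fell to 0.0196 without P8 replicate 1, to 0.0392 without P8 replicate 2 and to 0.0215 in DESeq2. With the time point as a factor, edgeR called 19.3% of all genes and 4 of these 6, namely Gabbr1 (adjusted p = 1.32e-08), Gabbr2 (9.32e-09), Kcnj9 (5.79e-04) and Kcnj6 (0.0390).

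Kcnj9 encodes GIRK3, a subunit known to direct channels within the cell. It had 1, 10 and 2 counts in the libraries of P0 (0.0498, 0.520 and 0.106 RPKM) and 102, 153 and 68 counts at P4 (6.25, 4.57 and 2.95 RPKM). It then measured 2.57, 3.51 and 1.75 RPKM at P8, 6.41, 4.98 and 4.65 at P14, and 8.76, 9.02 and 9.35 at P21. Every library of P0 lay below every later one, P8 overlapped with P4, and P14 and P21 each lay above the time point before.

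From P0 to P4, Kcnj9 rose by 4.41 on the log2 scale (SE 0.73, edgeR adjusted p = 0.00448). From counts summed over the libraries, the level at P4 was 19.8 times that at P0 (95% exact interval 11.4 to 37.7, counting error only). The difference from P4 to P8 was -0.80 (SE 0.61, edgeR adjusted p = 0.726), and the later steps were not called. The slope was 0.15 per day (SE 0.044, edgeR adjusted p = 0.0144), and the change from P0 to P21 was 5.65 (SE 0.76, adjusted p = 4.59e-05). The largest step of Kcnj9 thus lay between clusters of PCs and single somata, and the part of capture in it cannot be told apart from that of age.

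Kcnj6 encodes GIRK2, a subunit that can form channels by itself. Its counts were 10, 67 and 95 at P0, 175, 159 and 78 at P4, and 75, 19 and 51 at P8. They were 9, 12 and 0 at P14, and 0, 1 and 10 at P21. As mean RPKM, Kcnj6 thus went from 1.69 ± 1.29 at P0 up to 3.53 ± 2.19 at P4 and back to 1.27 ± 0.799 at P8 (SD, n = 3 each). It ended at 0.162 ± 0.147 at P14 and 0.0702 ± 0.102 at P21. All 6 libraries of P14 and P21 lay below all of P4 and P8, and P0 replicate 1, at 0.280 RPKM, fell just within the range of the late libraries, whose highest was 0.287.

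Kcnj6 fell by 0.26 per day on the log2 scale (SE 0.067, edgeR adjusted p = 0.00654), a call that was lost with log2(day + 1) in place of day (adjusted p = 0.138). From P0 to P21 the log2 change was -4.08 (SE 1.35, edgeR adjusted p = 0.0399). No step between neighbours was called, the largest difference being -2.80 from P8 to P14 (SE 1.27, edgeR adjusted p = 0.351). The change from P0 to P21 did not pass without P0 replicate 2 or 3, P4 replicate 1, P8 replicate 1 or 3, P14 replicate 1, or P21 replicate 1 or 2 (adjusted p from 0.0501 to 0.133), nor with limma-voom (0.0634) or a replicate block (0.0611). The call with the time point as a factor was lost without P4 replicate 1 or 2, P8 replicate 1 or 3, P14 replicate 1 or 2, or P21 replicate 1 or 2 (adjusted p from 0.0536 to 0.110), and with a replicate block (0.0802).

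Per length, the make-up of the GIRK subunit transcripts changed with age. Of the summed RPKM of Kcnj3, Kcnj6 and Kcnj9, Kcnj6 held 18.4% ± 14.6 at P0 and 20.3% ± 5.55 at P4, then 8.66% ± 3.07 at P8, 0.980% ± 0.918 at P14 and 0.302% ± 0.443 at P21 (SD, n = 3 each). Kcnj9 held 2.29% ± 2.34 at P0 but 27.9% ± 1.76 at P4, with 21.6% ± 13.6 at P8, and finally 33.2% ± 2.53 at P14 and 38.6% ± 2.11 at P21. Kcnj3 was the largest in all 15 libraries, between 45.6% and 95.6%. The sum of the 3 genes was 8.85 ± 1.51 RPKM at P0 and 23.4 ± 1.24 at P21, with 16.4 ± 5.72 at P4, 13.97 ± 6.15 at P8 and 16.0 ± 1.60 at P14 between them.

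**Figure D3:**
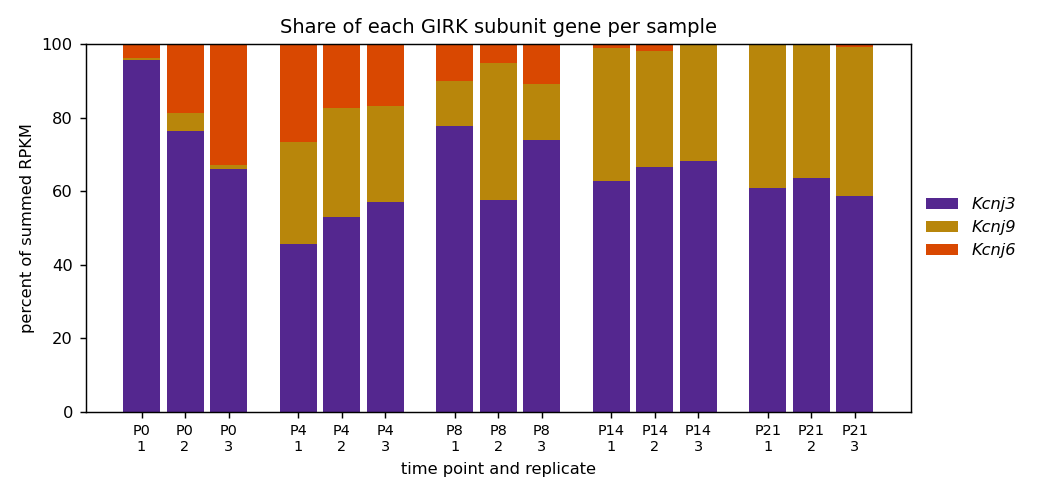
Percent of the summed RPKM of Kcnj3, Kcnj9 and Kcnj6 held by each gene (stacked bars, vertical axis from 0 to 100), for each of the 15 libraries ordered by time point and replicate. Kcnj6 holds at most 1.82% in the libraries of P14 and P21 and at least 3.73% in those of P0, P4 and P8.

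The log2 ratio of Kcnj6 to Kcnj3 was lower in late than in early libraries (difference -4.18), with means of -6.06 ± 0.990 late and -1.88 ± 1.25 early (SD, n = 6 each). Every late library lay below every early one, and the exact two-sided permutation test gave p = 0.00216, the smallest that 6 against 6 libraries allow (0.00325 adjusted over 3 ratios). Kcnj9 to Kcnj6 differed by 6.16 in the other direction, from -0.91 ± 1.75 early to 5.24 ± 1.05 late, with the same exact permutation p of 0.00216 (0.00325 adjusted). Since Kcnj6 had few or no counts in late libraries, the sizes depend on the added 0.1 RPKM: across the alternatives they ran from -5.54 to -2.17 and from 3.16 to 7.81, and both stayed past the threshold (adjusted p at most 0.0357).

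**Figure D4:**
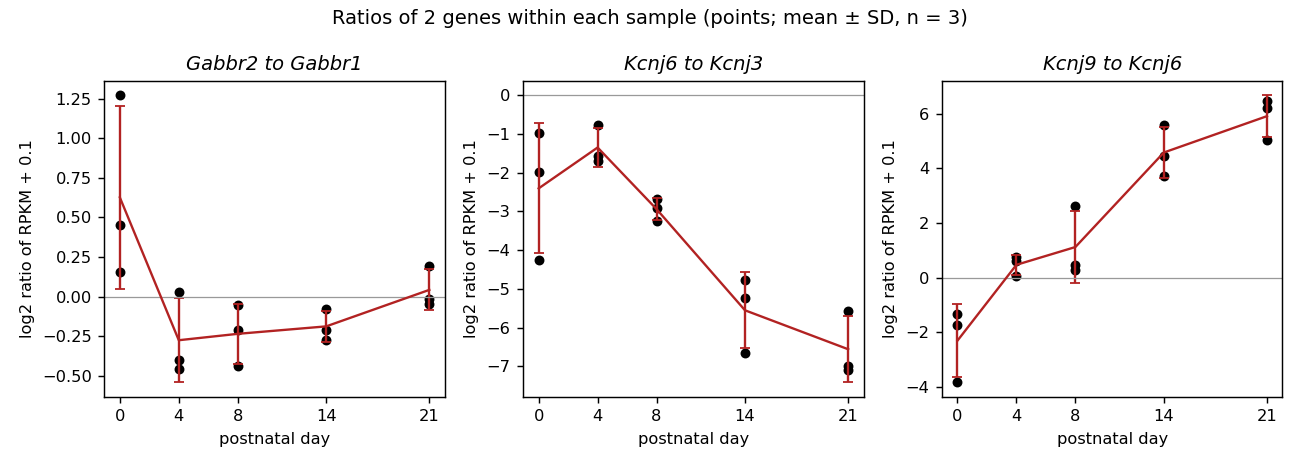
Log2 ratios of RPKM + 0.1 (vertical axes) for Gabbr2 to Gabbr1, Kcnj6 to Kcnj3 and Kcnj9 to Kcnj6 against postnatal day. Points are libraries, lines with bars the mean ± SD of 3. Gabbr2 to Gabbr1 stays between -0.46 and 1.27, whereas all late libraries lie below the early ones for Kcnj6 to Kcnj3 and above them for Kcnj9 to Kcnj6.

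The order of levels per length also shifted. At P0, Gabbr2 was highest, followed by Gabbr1 and Kcnj3, and these 3 did not overlap with each other, while Kctd8, Kcnj6, Kcnj9 and Kctd16 followed with overlap between each neighbouring pair. At P21, Gabbr2 and Gabbr1 overlapped at the top, and Kcnj3, Kcnj9 and Kctd8 followed in that order with no overlap. Kcnj6 and Kctd16 came last and overlapped. At P21 the receptor genes stood at 13.4% ± 0.509 (Gabbr2) and 13.1% ± 1.33 (Gabbr1) of the RPKM of Calb1. Calb1 is a PC marker encoding the calcium buffer calbindin. The same percentages, Gabbr2 first, were 9.98% ± 2.07 and 7.10% ± 3.54 at P0 and 4.22% ± 0.570 and 5.25% ± 1.54 at P4 (SD, n = 3 each). On this scale Kcnj3 was lower at P21 (1.11% ± 0.192) than at P0 (2.73% ± 1.04), with 1.35% ± 0.416 at P4. Kcnj9 stood at 0.0854% ± 0.102 at P0, 0.746% ± 0.315 at P4 and 0.704% ± 0.164 at P21. Kcnj6 stood at 0.557% ± 0.364, 0.587% ± 0.417 and 0.00649% ± 0.00982 at these ages.

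Markers of other cell types were measured in the same libraries. All 6 PC markers rose by edgeR, and DESeq2 called 5 of the 6 higher. Their summed level went from 5340 CPM (per-library counts after TMM scaling, 4549 to 6007 over the libraries) at P0 to 42941 CPM (36886 to 46640) at P21. All 5 oligodendrocyte markers also rose, from 22.4 CPM (13.7 to 35.9) at P0 to 569 CPM (396 to 845) at P21, with Mag at 0 at P0 and P4, Mobp at 0 at P0 and Mog at 0 at P8. The call of Mog was lost without P21 replicate 1 (edgeR adjusted p = 0.0529) and with log2(day + 1) (0.0889). The 8 markers of Bergmann glia and astrocytes summed to 4665 CPM at P0 (3872 to 5577), 9162 at P8 (8174 to 9807) and 4131 at P21 (3425 to 4968). Of these 8 markers 3 rose and 2 fell. The ranges of the PC and glial sums overlapped at P0, whereas the glial sum lay far below that of PCs at P21. The glial sums of P0 and P21 overlapped with each other. Sums over different marker genes do not measure the share of RNA from each cell type. The part of glia in early and late levels was not tested. Of the 4 granule neuron markers 2 rose, Gabra6 and Etv1. The 4 summed to 108 CPM at P0 and 215 at P21, and were highest at P14 with 381 CPM (242 to 633). Of 3 vascular markers 1 fell (75.8 to 23.7 CPM). Basket and Stellate cell, Golgi cell, microglia and granule cell progenitor markers had means of at most 103 CPM, and edgeR's slope test called none of the 13 tested, 2 of which had an unadjusted p below 0.05. Among the Golgi cell markers Slc6a5 was called higher by DESeq2 (adjusted p = 0.0362), by limma-voom (9.51e-04) and by edgeR without P0 replicate 3 (0.0310). Of the Basket and Stellate cell markers, Adam11 was called higher by limma-voom (0.0269) and Sorcs3 lower by edgeR without P0 (0.0422). Atoh1 was at 0 in all libraries. The oligodendrocyte and PC lists moved with Gabbr1, Gabbr2, Kcnj3 and Kcnj9, as did the granule neuron markers Gabra6 and Etv1. Their part in those results was not tested. Nor was the part of the changing balance between PC and glial markers.

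The G proteins between receptor and channel were described by lists of genes, beside the median slope of all genes tested, -0.0077 per day, and the shares of all genes called by the slope test, 12.1% rising and 14.1% falling. The 5 alpha subunit genes of the Gi/o class split: Gnai1 (slope 0.14) and Gnao1 (0.12), the latter encoding the most abundant neuronal alpha subunit, rose, and Gnai3 (-0.10) and Gnai2 (-0.039) fell (median of the list -0.034). Gnao1 went from 44.1 ± 4.21 RPKM at P0 to 162 ± 26.7 at P21 (SD, n = 3 each), and Gnai2 from 43.3 ± 11.1 to 20.9 ± 1.08. The call of Gnai2 was lost without P0 replicate 2 (adjusted p = 0.0584) or without all of P0 (0.152), and Gnaz was called lower as well with total counts alone (0.0251), without P0 replicate 1 (0.0240) and without P0 (0.0421), by edgeR.

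Of 13 tested beta and gamma subunit genes, 1 rose (7.69%, against 12.1% of all genes) and 8 fell (61.5%, against 14.1%), with a median slope of -0.060. The riser was Gng13, with a slope of 0.49 per day (SE 0.051), from 3.22 ± 1.08 RPKM at P0 to 3560 ± 1072 at P21 (SD, n = 3 each). The largest falls were those of Gng10 (slope -0.16), Gng2 (-0.13) and Gnb2 (-0.10). Gng2 went from 33.98 ± 10.5 to 4.12 ± 3.41 RPKM. The number falling was also 8 without P0, but 7 with limma-voom, 5 with log2(day + 1) and 6 without any one of the libraries of P21. Among the calls lost were those of Gnb4 and Gng12, with adjusted p of 0.298 and 0.492 with log2(day + 1).

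Among 10 tested regulators of this signalling, 3 rose (30%, against 12.1% of all genes) and 2 fell (20%, against 14.1%), with a median slope of 0.026. Rgs8, which encodes an RGS protein that shortens Gi/o signals, rose from 2.72 ± 1.32 to 308 ± 55.8 RPKM (slope 0.34, SD over n = 3), and Rgs7bp, the membrane anchor of the RGS7 family, from 5.34 ± 1.98 to 93.2 ± 5.16 (slope 0.21). Gpr158 rose by 0.087 per day. Rgs4, of the same class as Rgs8, fell from 186 ± 48.0 to 7.41 ± 1.06 RPKM (slope -0.22), and Rgs17 had a slope of -0.052. Rgs8 and Rgs4 thus changed in opposite directions. In edgeR's test the call of Gpr158 was lost with total counts alone (adjusted p = 0.0715), with log2(day + 1) (0.0627) and without P0 replicate 3 or P21 replicate 1 or 2 (0.0529 to 0.0875), and that of Rgs17 with log2(day + 1) (0.0588), without all of P0 (0.128) and without P0 replicate 2 or P21 replicate 1 or 2 (0.0501 to 0.0808).

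Of 11 genes for proteins that bind GABA-B receptors or take part in their traffic, 6 rose by edgeR (54.5%, against 12.1% of all genes) and none fell, at an unadjusted p below 0.05 either, with a median slope of 0.052. Their largest slopes were those of Ajap1 (0.20), Mpdz (0.15) and Pianp (0.12). Ajap1 and Pianp encode membrane proteins that can bind the extracellular part of the Gabbr1 product. The counts per gene do not tell the 5 protein-coding transcripts of Gabbr1 apart. Ajap1 went from 2.94 ± 2.63 RPKM at P0 to 46.3 ± 7.86 at P21 (SD, n = 3 each). The call of Calr, a chaperone gene and another of the 6, was lost with total counts alone (edgeR adjusted p = 0.0524) and without P0 (0.132).

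Of 18 tested other Kctd genes, 3 rose (Kctd9 with slope 0.15, Kctd2 with 0.10 and Kctd1 with 0.055) and Kctd15 fell (-0.18, median of the list -0.018). These shares, 16.7% rising and 5.56% falling, lay near or below those of all genes (12.1% and 14.1%). Kctd1 was not called with total counts alone (edgeR adjusted p = 0.0550) or with log2(day + 1) (0.109). The Kctd15 call was lost without P0 (edgeR adjusted p = 0.378), without the low-count filter (0.0504), with a replicate block (0.0651) and when any of 12 single libraries was left out, all but P4 replicates 1 and 2 and P8 replicate 1 (0.0510 to 0.0906). Of 6 tested other inward rectifier genes, Kcnj11, a subunit of ATP-sensitive channels, was called higher (slope 0.36, 0 RPKM in all P0 and P4 libraries and 0.866 ± 0.998 at P21), a call that was lost without P0 (edgeR adjusted p = 0.168). Kcnj10 and Kcnj16, which encode channels known from glia, had slopes of 0.076 and 0.16 that edgeR did not call (adjusted p = 0.0560 and 0.0573). DESeq2 called both (0.0311 and 0.0197), as did limma-voom (0.0129 and 0.0159) and edgeR with log2(day + 1) (0.0409 and 0.0175). Without P0, edgeR called no gene of this list higher. Kcnj5, which encodes GIRK4, did not pass the filter and had a mean of 0.250 RPKM at P8 and 0 at the other time points.

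**Figure D5:**
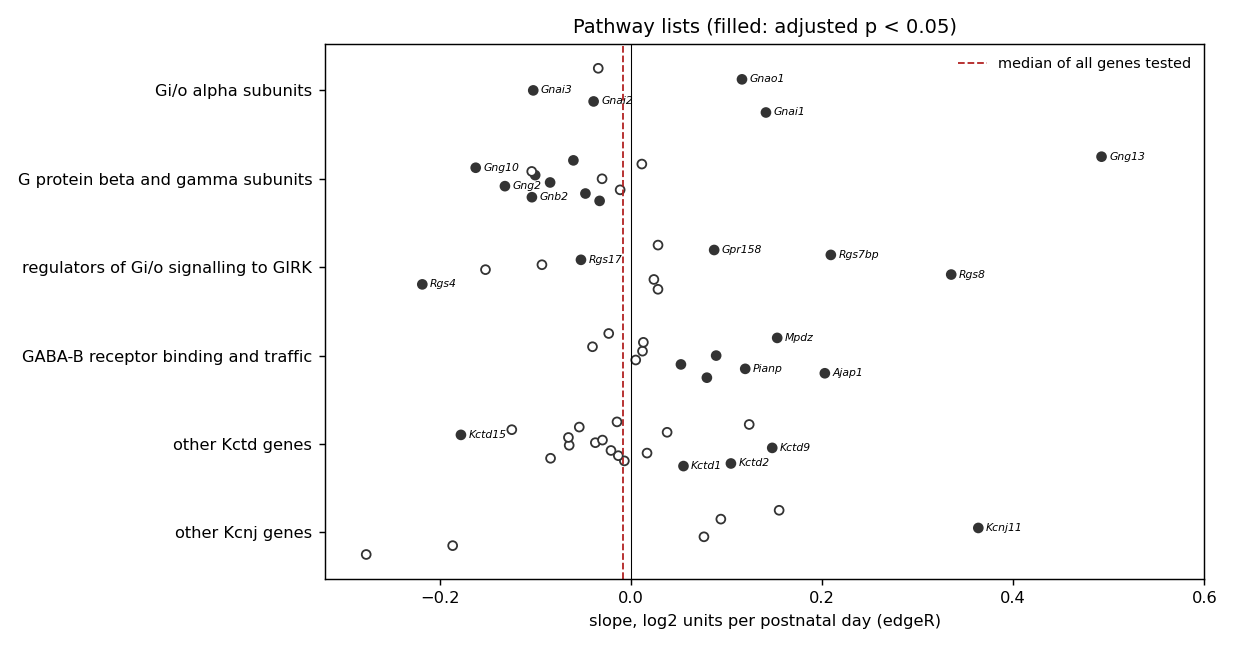
Slopes in log2 units per postnatal day (horizontal axis) of the tested genes in 6 pathway lists. Filled points have an adjusted p below 0.05 in edgeR's test and the dashed line is the median of all genes tested, -0.0077. Gng13 has the largest slope shown, 0.49.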

How the data were processed

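Libraries were made from cells of the mouse cerebellum highly enriched for PCs, captured by laser at 5 postnatal ages with 3 biological replicates each. Samples were grouped by the age in their titles. The authors trimmed adapters with cutadapt 1.2.1, aligned reads to mm10 (GRCm38.p1) with GSNAP and kept unique alignments, which HTSeq 0.5.3p9 counted in its intersection-strict mode. The deposited values are these raw counts per Ensembl gene, 1 library per sample. Reads not lying wholly within a counted feature (16.7% to 29.8% of the tallies) and ambiguous reads (1.16% to 1.57%) were kept out of library sizes and tests. The first share was highest in the libraries of P0, at 24.1% to 29.8%. The annotation release used for counting is not given in the sources used here.

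Symbols, positions and exon lengths came from GENCODE M21 (36639 of 38561 identifiers matched). RPKM used total counts on genes (3409371 to 7814951 per library, so 3 counts, the limit for a count of 0, equal 0.384 to 0.880 CPM, for counting error only). Tests used edgeR 4.0.16 in R 4.3.3 with TMM, filterByExpr by time point, no replicate block and a threshold of 0.05 over 14293 genes. Standard errors were derived from the estimate and its F statistic. Ratios were tested with exact permutations in scipy 1.17.1, 3 of 5 planned, since 2 involve Kctd12. Alternatives used DESeq2 1.42.0, limma-voom (limma 3.58.1), other scalings, no filter, log2(day + 1), leaving out P0 or single libraries, and a replicate block. On simulated counts for 13753 genes, edgeR's slope test recovered 115 of 200 genes changed by 0.1 per day (57.5%), with 3 false calls. The changed genes were drawn only from those with higher mean counts, so this rate does not cover sparse genes such as Kctd16. Genes were named by list, with up to 3 rising and 3 falling called genes of largest slope per list, and the 2 most alike by correlation, of which 1 is not reported here. The members and lists were chosen with earlier results of these data known. Promoter windows came from RefSeq (GRCm38.p6) for 7 of the 8 genes. The replicate numbers gave no sign of pairing, which is described with the effects of the processing.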

Additional observations from a re-analysis of the deposited data

Results flagged for a closer look

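In the log2 ratio of Kcnj6 to Kcnj3, P0 replicate 1 stood apart from the other early libraries (P0 and P4). Its ratio was -4.26, and the gap to the nearest of the other 5 libraries took a share of 0.652 of their whole range, above Dixon's critical value for 6 samples. Such a test marks about 1 group in 20 by chance. The library had 10 Kcnj6 counts, against 67 and 95 in the other libraries of P0.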

How the results depend on the processing

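With log2(day + 1), 0 of the receptor and channel genes fell. The slope of Kctd8 turned from -0.0091 to 0.034 with limma-voom, 0.017 without the P0 time point and 0.024 without P0 replicate 2, and was 0.00032 without P21 replicate 2, within a range of -0.028 to 0.024 over single libraries left out. The ratio of Gabbr2 to Gabbr1 turned from -0.25 to 0.20 without P0. Genes called from P0 to P4 went from 248 higher and 33 lower to 564 and 221 with DESeq2, and to 87 lower with limma-voom. From P4 to P8 they went from 126 higher and 36 lower to 323 and 173 with DESeq2 and 202 and 108 with limma-voom. From P8 to P14 they went from 185 higher and 197 lower to 398 and 446 with DESeq2, 386 higher with limma-voom and 331 lower with total counts only. From P14 to P21 they went from 9 higher and 38 lower to 49 and 124 with DESeq2, 42 and 11 with limma-voom, and 14 higher without the filter. From P0 to P21 the genes lower went from 1522 to 2292 with total counts only, and limma-voom lost the call of Kcnj6 (0 of the group lower). The cause of these shifts was not tested.

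Leaving out single libraries gave 167 to 261 higher and 19 to 65 lower from P0 to P4, 65 to 159 and 9 to 42 from P4 to P8, 89 to 236 and 74 to 207 from P8 to P14, and 2 to 11 and 21 to 59 from P14 to P21. Of the group, 1 to 2 genes were then higher from P0 to P4, 0 to 2 from P4 to P8, and 0 to 1 lower from P0 to P21. Each such fit left its time point with 2 libraries. It also repeated the low-count filter, which then left 14962 to 15064 genes in place of 14293. A call lost in such a fit therefore cannot be assigned to the omitted library alone.

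In the fit with a replicate block, 22 genes were lower from P4 to P8 and 0 of the group from P0 to P21, the Kcnj6 call being lost (adjusted p = 0.0611), as was its call with the time point as a factor (0.0802). Same-numbered libraries of different ages had correlated deviations of -0.032 to 0.047 (mean -0.0033), which gave no sign of pairing. The labels give only a replicate number, so whether such libraries share a litter or batch could not be tested. With TMM-scaled RPKM, Gabbr1 stood at 196 at P21. Kctd16 and late Kcnj6 had 0 to 14 counts per library, which limits the precision of their levels.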

Other observations

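For each tested gene of the receptor and channel group, the protein-coding genes with the most similar course were searched among 9845 genes, by the Pearson correlation of log2 CPM over the 15 libraries. Among the genes with a course close to that of Gabbr1 was Nptx1 (r = 0.984), which encodes a neuronal pentraxin. Nptx1 went from 1.85 RPKM at P0 by way of 25.2 at P8 to 174 at P21. Gabbr2 was most like Epdr1 (r = 0.986) and Syt7 (0.984), a synaptotagmin, which measured 9.69 RPKM at P0, 12.1 at P4 and 85.9 at P21.

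Kcnj9 was most like Opn3 (r = 0.974) and Ggact (0.955). Opn3, which encodes an opsin found in brain, shared the low level at P0, 0.583 RPKM, and stood at 16.8 at P4 and 54.7 at P21. Kcnj6 was most like Scarb1 (r = 0.932) and Cspg4 (0.927), the latter a gene known as a marker of oligodendrocyte precursors and pericytes. Cspg4 was highest at P4 with 2.30 RPKM, against 0.604 at P0 and 0.108 at P21. Kcnj3 was most like Rhoq (r = 0.877) and Luzp1 (0.870), and Kctd8 most like Tunar (0.902) and Trp53rka (0.872). The libraries share their ages, so these values describe courses and carry no p-value.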
